A study of Mus musculus with 18 samples.

Results

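The genes described here are 39 components of the Wnt pathway. They are 7 Wnt ligands, 10 Frizzled and Lrp receptors, 4 genes of the R-spondin and Lgr branch, 6 secreted antagonists, 8 genes of the β-catenin destruction complex and its feedback loops, and 4 transcription factors of the TCF/LEF family. They were taken by gene identifier from a table of 27179 genes, from a list chosen with earlier results of these data known. All 39 passed the filter on low counts that left 16466 genes to test. Of 122 other pathway genes, which the list leaves out, 103 passed, so the passing of all 39 may reflect how the list was chosen. Their messenger RNA was followed in 3 epithelial populations of the mouse mammary gland, in mice labelled as lacking Brca2 and 1 copy of Trp53 in mammary epithelium and in mice labelled wildtype.

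Wnt ligands are secreted proteins that bind a Frizzled receptor together with the co-receptor Lrp5 or Lrp6. Receptor binding stops the destruction complex, built on Apc and Axin, from breaking down β-catenin (Ctnnb1), which then works with TCF/LEF factors in the nucleus. R-spondins, bound by Lgr receptors, prolong the signal by clearing the receptor-removing ligases Rnf43 and Znrf3, whereas Axin2, Nkd1, Nkd2, Notum, Rnf43 and Znrf3 are known as targets that feed back on the pathway. In the mammary gland the pathway is known for ductal growth and for maintenance of basal stem cells, and mouse mammary tumour virus can cause tumours by inserting beside Wnt genes.

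Bulk RNA sequencing was done on cells sorted from female mice aged 14 weeks. They were sorted into luminal progenitors (LP), mature luminal (ML) cells, which carry hormone receptors, and basal cells, which contract to move milk. The mutant mice (KO, n = 3) carry MMTV-cre(T/+), together with Brca2(delta/delta) and, on 1 copy, Trp53(delta/+). Their Cre is driven by the mouse mammary tumour virus promoter, which is active in mammary epithelium. Their sample names say knockdown where the genotype label says Brca2KO. The controls are labelled WT (n = 3), yet their strain is given, as for KO, by MMTVcre with Brca2(fl/fl) and Trp53(fl/+). Whether WT mice had the transgene, the floxed alleles or KO littermates is not known here, and strain background and genotype cannot be told apart. The labels name no treatment and no sort gates. Each mouse gave 1 library per population, so there were 6 groups of 3 libraries.

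Total counts ran from 5.97 M to 39.19 M per library. They were 22.42 M to 32.72 M in LP KO and 9.29 M to 16.17 M in LP WT, so the LP groups differed in depth without overlap. Levels are CPM (counts scaled to library size with TMM factors), given per mouse or as mean ± SD over 3 mice. Trp53 stood at 13.7 to 35.8 CPM in basal KO against 57.0 to 88.7 CPM in basal WT, at 7.25 to 9.05 CPM in LP KO against 67.1 to 150.3 CPM in LP WT, and at 13.6 to 17.1 CPM in ML KO against 39.6 to 49.2 CPM in ML WT. The median of Trp53 in KO was 10.6% of the WT median for LP, 31.5% for ML and 23.6% for basal cells, less than the 1 remaining copy that the label names would give at an equal level per copy, and the cause was not tested. Brca2 counts overlapped between the genotypes in each population, and a count over the whole gene does not test a deletion of some exons. The labelled populations carried their defining markers: 15 basal markers summed to 18780 CPM or more in each basal library and to 1529.8 CPM or less in any luminal library. Markers of 11 luminal progenitor genes were highest in LP, and those of 12 mature luminal genes were highest in ML. The ML KO library of mouse 1 stood apart, with a mature luminal sum of 2271 CPM against 5157 and 5208 CPM in the other ML KO libraries, and a luminal progenitor sum of 2051 CPM against 837 and 985 CPM. Markers of other cells were low but not absent: 11 T cell genes summed to at most 15.35 CPM in any library and 6 fat cell genes to at most 31.8 CPM. The other 14 immune genes summed to 60.2 CPM in the LP KO library of mouse 3 and to at most 19.7 CPM in any other library, with the general immune marker Ptprc at most 1.09 CPM.

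In WT mice most of the 39 genes were highest in basal cells. In LP, 4 of the 39 genes were higher and 22 were lower than in basal cells (edgeR quasi-likelihood test, Benjamini-Hochberg adjusted over 16466 genes, threshold 0.05), where 36.1% of all genes passed, 16.9% higher and 19.2% lower. In ML, 5 were higher and 29 were lower than in basal cells, where 53.3% of all genes passed, 24.8% higher and 28.5% lower. The median log2 fold change of the 39 genes was -1.32 for LP over basal and -3.00 for ML over basal, against 0 and -0.07 for all genes tested. With genes at 0 counts in a group set at the bound that a floor of 3 counts over the group allows, the medians were -1.23 and -2.78. Between the luminal populations 17 genes were higher and 7 were lower in LP than in ML, where 34% of all genes passed, 18.3% higher and 15.7% lower. Without overlap of the libraries, 5 genes lay above and 23 below in LP against basal cells of WT mice, where 44.2% of all genes did either, 20.4% above and 23.7% below. In ML against basal cells 5 lay above and 29 below, where 61.3% did, 28.7% above and 32.7% below. In LP against ML 18 lay above and 7 below, where 45.3% did, 22.8% above and 22.4% below. Basal cells had the highest mean of the 3 populations for 28 genes in KO and for 29 in WT, and 34 genes peaked in the same population in both genotypes.

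**Figure D1:**
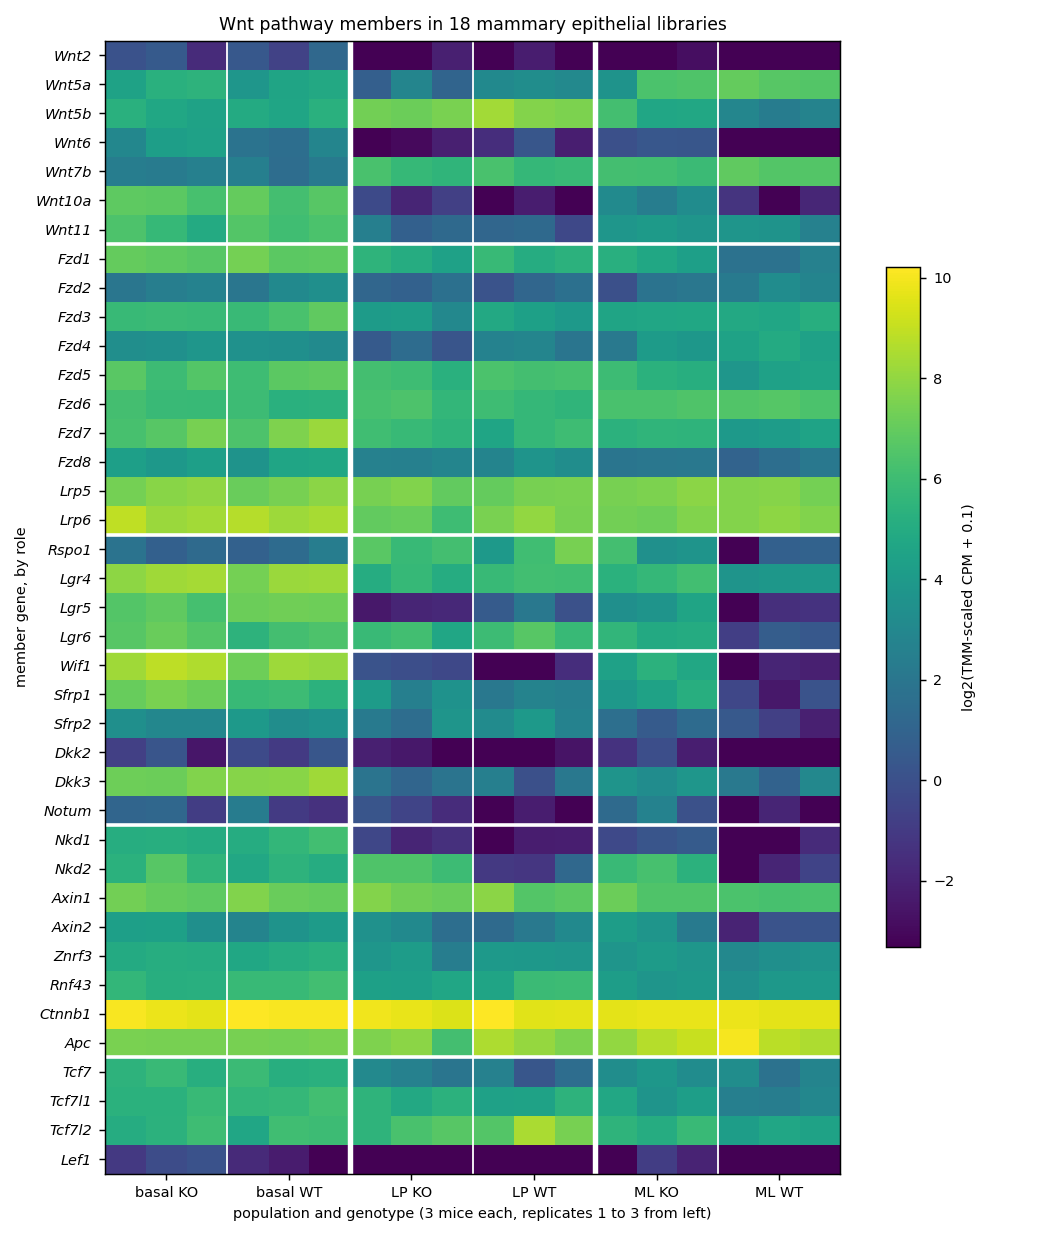
Level of the 39 genes in each of the 18 libraries, as log2 of CPM plus a pseudocount of 0.1, with genes in rows grouped by role and libraries in columns, KO left of WT in each population. Rows such as Wif1, Wnt10a and Nkd1 are bright in the 6 basal libraries and dark in LP, Ctnnb1 is bright throughout, and the ML KO columns are brighter than the ML WT columns for 24 genes without overlap.

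The ligands were divided between the populations. Wnt10a, a ligand of the β-catenin branch, was the highest of the 7 ligands in basal cells per unit of transcript length, at 51.5 ± 10.05 RPKM (counts scaled for library size and gene length) in KO and 51.5 ± 15.01 RPKM in WT. Wnt11, known for signalling without β-catenin, came second there at 20.6 ± 10.2 RPKM in KO and 29.5 ± 5.58 RPKM in WT. Wnt11 was lower in LP (log2 fold change of -5.67 ± 0.56 SE, adjusted p = 2.7e-07) and in ML (log2 fold change of -3.00 ± 0.48 SE, adjusted p = 4.4e-05) than in basal cells of WT mice. Wnt10a had, in WT mice, a total of 1 count over the 3 LP libraries and 6 over the 3 ML libraries, against 5560 over the 3 basal libraries. Wnt6, another ligand of epithelia, stood at 0.494 ± 0.539 CPM in LP WT and at 0 counts in ML WT, against 4.47 ± 2.34 CPM in basal WT, which is at least 53.2-fold lower in ML. Wnt2, known mainly from stromal cells, did not exceed 2.26 CPM in any library.

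Wnt5b, Wnt7b and Wnt5a were highest in a luminal population. Wnt5b was the highest of the 7 in LP, at 68.8 ± 7.54 RPKM in KO and 101 ± 31.4 RPKM in WT. In WT mice it was 7.72-fold higher in LP than in basal cells (log2 fold change of 2.95 ± 0.36 SE, adjusted p = 3.0e-06) and 38.5-fold higher in LP than in ML (log2 fold change of 5.27 ± 0.40 SE, adjusted p = 5.8e-08). Wnt7b was 14.98-fold higher in LP than in basal cells (log2 fold change of 3.90 ± 0.29 SE, adjusted p = 8.0e-09) and 24.7-fold higher in ML than in basal cells (log2 fold change of 4.63 ± 0.30 SE, adjusted p = 9.0e-10). Wnt5a, the classic ligand of the non-canonical branch, was the highest of the 7 ligands in ML WT at 25.01 ± 4.06 RPKM, next to Wnt7b at 23.6 ± 3.35 RPKM, a gap smaller than the spread between mice. Wnt4, a ligand outside the 39 genes, stood higher there, at 29.8 ± 3.71 RPKM in ML KO and 78.3 ± 44.2 RPKM in ML WT. Wnt5a was 4.95-fold higher in ML than in basal cells of WT mice (log2 fold change of 2.31 ± 0.57 SE, adjusted p = 0.0025) and 12.3-fold lower in LP than in ML (log2 fold change of -3.63 ± 0.61 SE, adjusted p = 1.9e-04).

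Among the receptors, Fzd1, Fzd3, Fzd7, Fzd8 and the co-receptor Lrp6 were lower in both luminal populations than in basal cells of WT mice. The 2 calls of Lrp6 (edgeR adjusted p = 0.03 in LP and 0.04 in ML) were each lost without WT mouse 1 or WT mouse 3. The LP call of Fzd8 was lost without WT mouse 3. Fzd1 stood at 54.9, 33.2 and 40.9 CPM in LP WT and at 3.33, 3.34 and 6.12 CPM in ML WT, against 166, 112 and 114 CPM in basal WT, with no overlap of the 3 groups. Fzd4 and Fzd6 ran the other way between ML and basal cells, with Fzd6 at 91.8 ± 8.06 CPM in ML WT and 47.1 ± 13.2 CPM in basal WT (log2 fold change of 0.96 ± 0.24 SE, adjusted p = 0.0023). Both calls depended on single mice: that of Fzd6 was lost without WT mouse 2 (adjusted p = 0.081), and that of Fzd4 without WT mouse 2 (adjusted p = 0.14) or WT mouse 3 (adjusted p = 0.068). The co-receptor Lrp5 was nearly level, at 161 ± 28.3 CPM in LP, 196 ± 26.6 CPM in ML and 182 ± 45.5 CPM in basal cells of WT mice, and passed no test between them.

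R-spondin 1 and its Lgr receptors were unevenly placed. Rspo1 was an LP gene, at 15.1, 66.7 and 171 CPM in LP WT, against 0, 1.67 and 1.84 CPM in ML WT and 1.72, 2.51 and 5.18 CPM in basal WT. The LP WT libraries were spread over a wide range but lay above all libraries of the other populations of WT mice (LP over basal: log2 fold change of 4.80 ± 0.88 SE, adjusted p = 2.9e-04). Lgr5, a stem cell marker of the intestine, was basal, at 1.36, 4.11 and 0.919 CPM in LP WT and 0, 0.2502 and 0.299 CPM in ML WT, against 146, 156 and 147 CPM in basal WT. Lgr6 was shared by basal cells and LP, with 73.99 ± 26.7 CPM in LP WT and 66.3 ± 21.9 CPM in basal WT, and stood in ML WT at 1.07 ± 0.533 CPM (ML over basal: log2 fold change of -5.84 ± 0.47 SE, adjusted p = 1.2e-08). Lgr4 was highest in basal cells and lowest in ML of WT mice, at 63.9 ± 7.11 CPM in LP, 13.98 ± 1.04 CPM in ML and 256 ± 75.5 CPM in basal cells.

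The secreted antagonists were basal as a group: in WT mice 5 of 6 were lower in LP and 6 of 6 in ML than in basal cells. Wif1, which binds Wnt proteins outside the cell, was the highest of them per length at 172 ± 34.1 RPKM in basal KO and 108 ± 36.01 RPKM in basal WT. It was near 0 in luminal cells of WT mice, at 0, 0 and 0.245 CPM in LP and 0, 0.167 and 0.128 CPM in ML. Dkk3, a member of the Dickkopf family, stood at 3.598 ± 2.45 CPM in LP WT and 4.65 ± 3.01 CPM in ML WT, against 250.1 ± 53.3 CPM in basal WT. Sfrp2, also known from fibroblasts, did not pass between LP and basal cells (log2 fold change of -0.28 ± 0.55 SE, adjusted p = 0.73). Sums of 15 fibroblast markers were 2953 to 3301 CPM in basal KO and 2771 to 4914 CPM in basal WT, against at most 189.9 CPM in LP and 537 CPM in ML. These sums were set mainly by a few genes. In the basal KO library of mouse 1, Postn held 39643 counts and Cxcl12 10426, against 84 for Lum, 283 for Dpt and 445 for Pi16. The part of the fibroblast markers in the basal levels of the 39 genes was not tested.

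Of the intracellular genes, Ctnnb1, which encodes β-catenin, was by far the most abundant per length in each group, at 253 ± 64.6 RPKM in LP WT, 229.8 ± 17.7 RPKM in ML WT and 306 ± 18.2 RPKM in basal WT, and passed no test between populations. The feedback genes Nkd1 and Nkd2, which act on Dishevelled, were basal in WT mice. Nkd1 stood at 0, 0.111 and 0.123 CPM in LP WT and 0, 0 and 0.214 CPM in ML WT, against 33.5, 50.3 and 69.3 CPM in basal WT. Axin2, the most widely used readout of β-catenin signalling, was lower in ML than in basal cells (log2 fold change of -3.90 ± 0.69 SE, adjusted p = 1.3e-04), while LP did not pass (log2 fold change of -1.23 ± 0.59 SE, adjusted p = 0.12; adjusted p = 0.0024 with the mouse as a block). Apc was the exception among them, higher in ML than in basal cells of WT mice (log2 fold change of 1.85 ± 0.42 SE, adjusted p = 0.0012), where the ML WT library of mouse 1 held 1049.9 CPM against 446 and 379 CPM in the other ML WT libraries. Without this mouse the log2 fold change of Apc was 1.25 (adjusted p = 0.028). Notum, near 0 in luminal cells of WT mice, rested on WT mouse 1 in basal cells. Without this mouse its lower level than in basal cells was lost for LP (adjusted p = 0.22) and for ML (adjusted p = 0.21).

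The TCF/LEF factors, which carry β-catenin to DNA, separated the populations. Tcf7l2 led in LP, at 97.7, 365 and 175 CPM in LP WT against 25.4, 67.8 and 62.6 CPM in basal WT (log2 fold change of 2.03 ± 0.45 SE, adjusted p = 0.0014). Tcf7, which encodes TCF1, was 13.8-fold lower in LP and 6.88-fold lower in ML than in basal cells of WT mice (adjusted p = 8.9e-06 and 8.9e-05 in edgeR). Tcf7l1, known as a repressor, was 4.69-fold higher in LP than in ML of WT mice (log2 fold change of 2.23 ± 0.34 SE, adjusted p = 6.5e-05). Lef1 was hardly measured: it had 0 counts in all LP libraries and at most 0.960 CPM in any library.

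**Figure D2:**
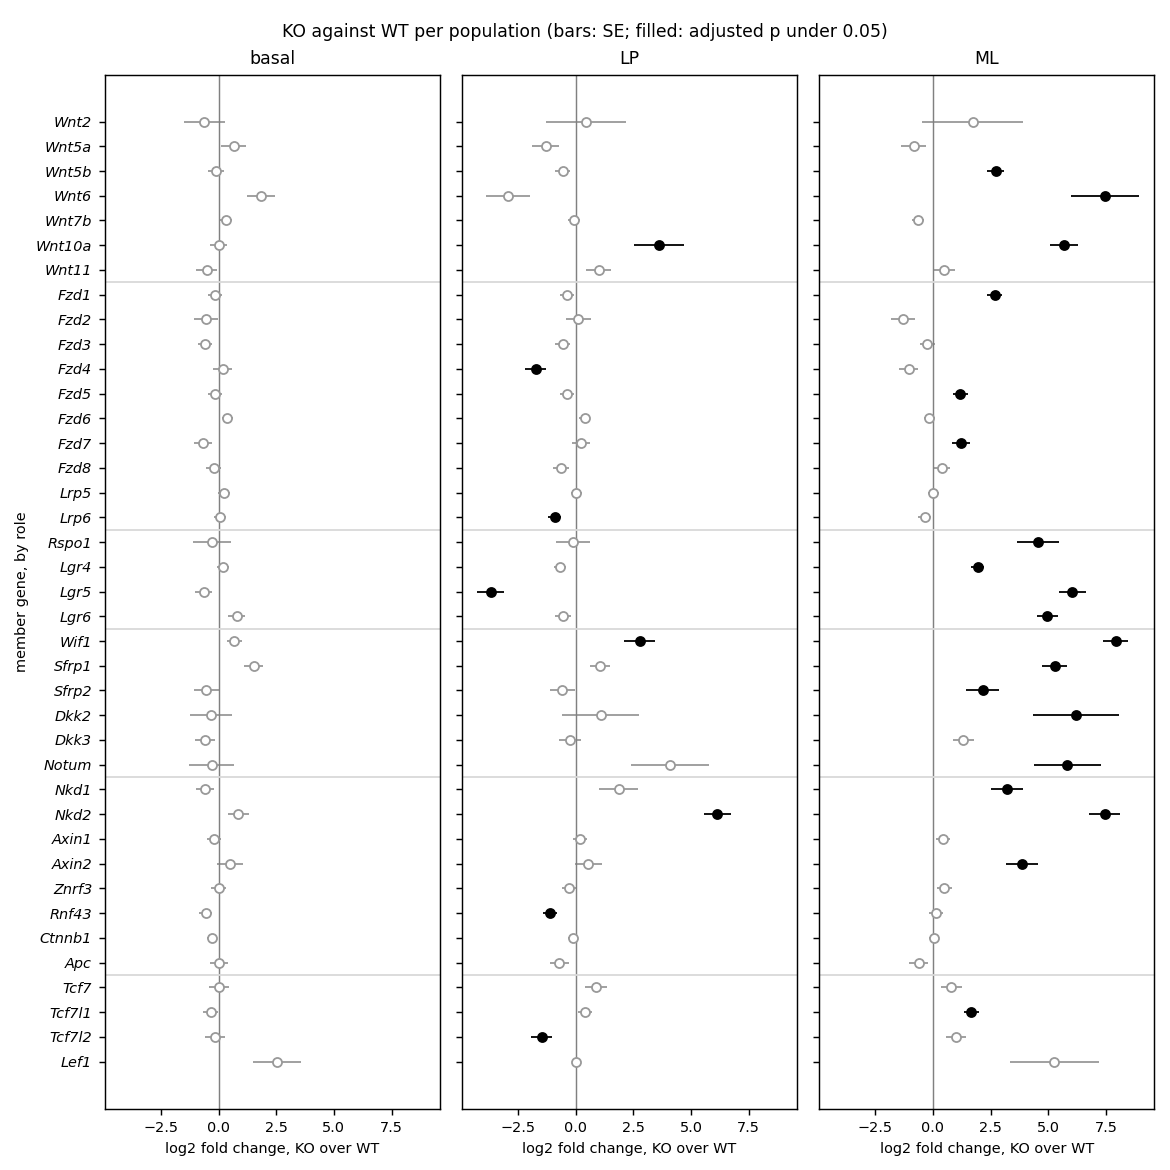
Log2 fold change of KO over WT for each of the 39 genes in basal cells, LP and ML, with bars for the standard error and filled points for an adjusted p under 0.05. The basal panel has no filled point, the LP panel has 8, and the ML panel has 19, all to the right of 0; fitted values for Wnt6, Dkk2 and Lef1 in ML rest on WT groups at 0 counts and are no bounds.

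In basal cells none of the 39 genes passed between KO and WT (edgeR quasi-likelihood test), where 2.54% of all genes did, 2.47% higher and 0.0668% lower. Of the 39 genes, 5 had an unadjusted p under 0.05, where 1724 of all 16466 genes did. DESeq2 called 2 of the 39, and 694 over all genes. The median log2 fold change was -0.16, against -0.02 for all genes. Sfrp1, a secreted Frizzled-related antagonist, stood at 132, 182 and 142 CPM in basal KO against 56.02, 61.2 and 42.01 CPM in basal WT, each KO library above each WT library (log2 fold change of 1.52 ± 0.41 SE, adjusted p = 0.057). Wnt6 stood at 7.68, 19.1 and 20.98 CPM in basal KO against 3.43, 2.83 and 7.16 CPM in basal WT, also without overlap (log2 fold change of 1.85 ± 0.61 SE, adjusted p = 0.17). These were the 2 genes that DESeq2 called (adjusted p = 0.0076 for Sfrp1 and 0.034 for Wnt6). In all, 5 of the 39 genes lay above and 3 below WT without overlap, where 17.6% of all genes did either, 10.8% above and 6.82% below. The 11 luminal progenitor markers and 12 mature luminal markers had 2 genes each higher in basal KO.

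In LP, 3 genes rose and 5 fell in KO (edgeR quasi-likelihood test), where 7.55% of all genes rose and 5.68% fell, 13.2% in all. The rises were Nkd2, Wif1 and Wnt10a, and the falls were Fzd4, Lrp6, Lgr5, Rnf43 and Tcf7l2. The median log2 fold change of the 39 genes was -0.11, against 0.02 for all genes. Without overlap, 5 genes lay above and 6 below, where 31% of all genes did either, 17.7% above and 13.4% below. With all libraries thinned to the same depth 9 of the 39 genes were called, and 2037 over all genes. Basal markers summed to 409.9 to 574 CPM in LP KO against 596 to 799 CPM in LP WT. Of the 15 markers 3 were called higher and 2 lower, and 7 had a positive log2 fold change. Itga6, Itgb4 and Lama3 held a large part of these basal sums. In the LP WT library of mouse 1 they had 3154, 988 and 1508 counts, against 101 for Krt14. The lower sum therefore does not describe the basal markers as a list. Luminal progenitor markers summed to 4534 to 4999.9 CPM in LP KO against 5368 to 7807 CPM in LP WT, and mature luminal markers to 593 to 803 CPM in LP KO against 861 to 1369 CPM in LP WT. Fibroblast markers summed to 106 to 190 CPM in LP KO against 58.9 to 92.5 CPM in LP WT, with 2 of 15 higher. The 14 immune genes other than T cell markers summed to 17.01, 13.7 and 60.2 CPM in LP KO against 19.7, 11.6 and 8.64 CPM in LP WT, with Csf1r and Itgam higher of the 6 tested. The 11 T cell genes summed to 3.38 to 4.38 CPM in LP KO against 1.00 to 1.97 CPM in LP WT, with Lck higher of the 2 tested. Lck alone held most of the T cell counts in LP KO, at 67, 112 and 107 counts. It also had 256, 427 and 143 counts in the basal KO libraries. Without KO mouse 3, whose library had the highest immune sum, 3 of the 39 genes were called, Nkd2, Wif1 and Lgr5. The part of these marker differences in the changes in LP was not tested.

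Nkd2 (gene 72293, chromosome 13, 73818534 to 73847631 in the mm10 assembly) showed the largest change of the 39 genes in LP. It stood at 89.9, 90.6 and 61.6 CPM in LP KO against 0.3701, 0.334 and 2.27 CPM in LP WT, so every KO library lay far above every WT library. The mean of 80.7 ± 16.5 CPM in LP KO compared with 0.991 ± 1.11 CPM in LP WT (log2 fold change of 6.14 ± 0.61 SE, adjusted p = 2.2e-05). ML libraries held 58.5, 76.1 and 41.8 CPM in KO against 0, 0.167 and 0.556 CPM in WT (log2 fold change of 7.45 ± 0.68 SE, adjusted p = 7.1e-07). In basal cells, where WT mice also express it, it stood at 39.8, 103 and 45.5 CPM in KO against 27.8, 42.5 and 33.6 CPM in WT (log2 fold change of 0.86 ± 0.46 SE, adjusted p = 0.58). Nkd2 was thus between 39.8 and 103 CPM in every KO library of the 3 populations, whereas in WT mice the luminal libraries did not exceed 2.27 CPM. The call in LP and the call in ML held in each of the 13 alternative settings. Its WT levels rest on few counts, and without WT mouse 3, the highest, the log2 fold change was 7.84 (adjusted p = 1.9e-05) in LP and 9.05 (adjusted p = 2.9e-06) in ML.

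The promoter of Nkd2 is shown because this gene moved furthest in LP and in the same direction in ML. The 250 bases before its RefSeq start site (GRCm38.p6, chr13:73847632-73847881, minus strand, written 5′ to 3′) held no match to the TCF/LEF core letters ATCAAAG or TTCAAAG on either strand.
Nkd2: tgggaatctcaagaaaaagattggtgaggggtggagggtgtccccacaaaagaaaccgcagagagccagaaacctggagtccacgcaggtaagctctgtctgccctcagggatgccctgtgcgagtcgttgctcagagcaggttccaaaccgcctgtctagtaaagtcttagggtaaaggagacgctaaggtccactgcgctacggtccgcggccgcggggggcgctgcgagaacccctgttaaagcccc

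Wif1 (gene 24117, chromosome 10, 121034004 to 121100642) stood at 1.001, 0.837 and 0.659 CPM in LP KO against 0, 0 and 0.245 CPM in LP WT (log2 fold change of 2.77 ± 0.68 SE, adjusted p = 0.014). Wnt10a (gene 22409, chromosome 1, 74792019 to 74804176) had 38 counts over the LP KO libraries and 1 over the LP WT libraries, a ratio of 14.1 per scaled depth with a 95% exact counting interval of 2.38 to 570 (log2 fold change of 3.61 ± 1.07 SE, adjusted p = 0.033). Both were therefore called at levels under 1.01 CPM, against 386 ± 76.5 CPM in basal KO and 241 ± 80.7 CPM in basal WT for Wif1. The call of Wif1 was lost with the LP libraries alone and without WT mouse 2, and its value without WT mouse 3 was 7.12 (adjusted p = 0.01). That of Wnt10a was lost in 5 of 12 settings, which were leaving out KO mouse 1 or 3 or WT mouse 1 or 3 and a newer quasi-likelihood method. Its log2 fold change was 6.22 (adjusted p = 0.042) without WT mouse 2 and 2.80 (adjusted p = 0.15) without WT mouse 3.

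Lgr5 (gene 14160, chromosome 10, 115450314 to 115587780) was the steepest fall in LP, at 0.0834, 0.167 and 0.198 CPM in KO against 1.36, 4.11 and 0.919 CPM in WT (log2 fold change of -3.68 ± 0.58 SE, adjusted p = 7.7e-04). The KO libraries lay below all WT libraries, and the value without WT mouse 2, the highest, was -2.77 (adjusted p = 0.015). The other falls were smaller. Fzd4, a receptor also bound by norrin, stood at 1.33, 2.62 and 1.09 CPM in LP KO against 6.29, 7.005 and 3.8 CPM in LP WT (log2 fold change of -1.74 ± 0.44 SE, adjusted p = 0.016). Lrp6 stood at 107 ± 38.5 CPM in LP KO against 203 ± 48.4 CPM in LP WT (log2 fold change of -0.92 ± 0.28 SE, adjusted p = 0.035), a call lost in 5 of 13 settings. The ligase gene Rnf43 stood at 20.5, 20.1 and 25.99 CPM in LP KO against 23.6, 59.04 and 61.3 CPM in LP WT (log2 fold change of -1.11 ± 0.30 SE, adjusted p = 0.02). The Rnf43 groups overlapped, and its call was lost in 6 of 13 settings, among them without any 1 of the KO mice. Tcf7l2 stood at 44.8, 79.4 and 104 CPM in LP KO against 97.7, 365 and 175 CPM in LP WT (log2 fold change of -1.48 ± 0.44 SE, adjusted p = 0.033), groups that overlapped. Its log2 fold change was -0.82 without WT mouse 2 (adjusted p = 0.28).

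Of the 8 calls in LP, Lgr5 and Nkd2 held in each alternative setting, and a fit to the LP libraries alone made these 2 calls and no other among the 39 genes. Leaving out KO mouse 1, KO mouse 3 or WT mouse 2 left 4, 3 and 3 calls. Wnt5b, the highest of the 7 ligands in LP, did not pass at 162, 146 and 182 CPM in LP KO against 326, 207 and 189 CPM in LP WT (log2 fold change of -0.56 ± 0.33 SE, adjusted p = 0.27), and neither did Rspo1 (log2 fold change of -0.12 ± 0.73 SE, adjusted p = 0.94).

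**Figure D3:**
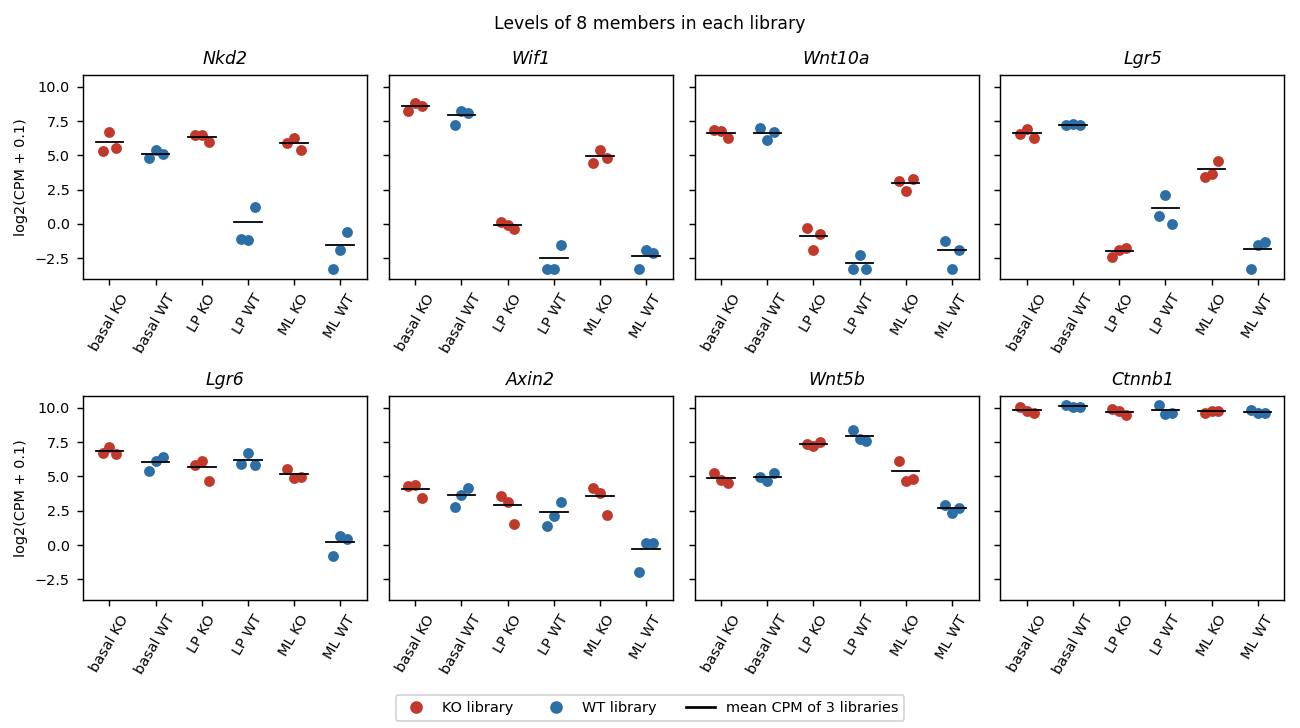
Level of 8 genes in each library as log2 of CPM plus 0.1, KO in red left of WT in blue in each population, with a line at the log2 of the mean CPM of 3 libraries. Nkd2 is near its basal level in LP KO and ML KO and near the floor in LP WT and ML WT, Wif1, Wnt10a and Lgr5 are partly raised in ML KO, and Ctnnb1 sits at similar heights in all groups.

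In ML cells 19 of the 39 genes rose in KO and 0 fell (edgeR quasi-likelihood test), where 12.5% of all genes rose and 2.62% fell, 15.1% in all. At an unadjusted p under 0.05 in either direction there were 25 of the 39, and 4727 of all 16466 genes. DESeq2 called 20 of the 39, and 3085 over all genes. Without overlap between the genotypes, 24 genes lay above WT and 5 below, against 21.6% and 16.2% of all genes. The median log2 fold change was 1.32, against 0.02 for all genes, and 1.27 over 38 genes with those at 0 counts in WT set at their bound. By role, 3 of 7 ligands, 3 of 10 Frizzled and Lrp receptors, 4 of 4 R-spondin and Lgr genes, 5 of 6 antagonists, 3 of 8 destruction complex and feedback genes and 1 of 4 TCF/LEF factors rose.

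The secreted antagonists included the largest log2 fold change of the main fit, that of Wif1. Over the alternative settings its value ran from 7.65 to 8.72 and that of Nkd2 from 7.18 to 9.05, so the order of the 2 genes is not settled. Wif1 stood at 21.7, 41.3 and 27.6 CPM in ML KO against 0, 0.167 and 0.128 CPM in ML WT, with no overlap (log2 fold change of 7.92 ± 0.55 SE, adjusted p = 3.0e-08). Sfrp1 stood at 14.6, 21.9 and 36.3 CPM in ML KO against 0.634, 0.0834 and 0.984 CPM in ML WT (log2 fold change of 5.28 ± 0.54 SE, adjusted p = 2.2e-06; 6.41 (adjusted p = 3.3e-05) without WT mouse 3). Notum, a secreted enzyme that strips the lipid from Wnt proteins, stood at 2.48, 6.21 and 0.9096 CPM in ML KO against 0, 0.167 and 0 CPM in ML WT. Its 273 counts in KO against 2 in WT give a ratio of 79.5 per scaled depth with a 95% exact counting interval of 21.8 to 660 (edgeR adjusted p = 0.0094), and the call was lost without KO mouse 2. Its log2 fold change of 5.82 became 4.84 (adjusted p = 0.062) without KO mouse 2, 9.08 (adjusted p = 0.021) without WT mouse 2 and 4.90 (adjusted p = 0.046) without WT mouse 3. Dkk2, which blocks Lrp6, had 37 counts in ML KO and 0 in ML WT, at least 7.18-fold higher (edgeR adjusted p = 0.033). Of these counts 31 came from KO mouse 2, and without it the bound was 2.36-fold. The call was lost in 4 of 10 settings, without KO mouse 1 or without any 1 of the WT mice. Sfrp2 stood at 2.98, 1.38 and 2.57 CPM in ML KO against 1.27, 0.5005 and 0.128 CPM in ML WT (log2 fold change of 2.15 ± 0.71 SE, adjusted p = 0.046). Its call was lost in 7 of 13 settings, and its value was 3.04 (adjusted p = 0.021) without WT mouse 1 and 1.49 (adjusted p = 0.21) without WT mouse 3. Dkk3 stood at 11.98 ± 2.298 CPM in ML KO against 4.65 ± 3.01 CPM in ML WT just outside the threshold (log2 fold change of 1.32 ± 0.46 SE, adjusted p = 0.06).

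The 250 bases before the RefSeq start site of Wif1 (GRCm38.p6, chr10:121033754-121034003, plus strand, 5′ to 3′), shown because this gene had the largest log2 fold change of the main fit in ML, held no match to the same TCF/LEF letters.
Wif1: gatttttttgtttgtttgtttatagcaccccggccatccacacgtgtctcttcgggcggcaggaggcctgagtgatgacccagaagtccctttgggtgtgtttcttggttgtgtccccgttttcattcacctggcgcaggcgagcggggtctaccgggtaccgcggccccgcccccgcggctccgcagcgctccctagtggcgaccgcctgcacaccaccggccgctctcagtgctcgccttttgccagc

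All 4 genes of the R-spondin and Lgr branch rose in ML KO. Lgr5 stood at 10.7, 12.6 and 23.6 CPM in ML KO against 0, 0.2502 and 0.299 CPM in ML WT (log2 fold change of 6.05 ± 0.58 SE, adjusted p = 1.0e-06), the opposite direction to its fall in LP. Lgr6 (gene 329252, chromosome 1, 134983300 to 135105374) stood at 47.2, 29.3 and 31.7 CPM in ML KO against 0.475, 1.502 and 1.24 CPM in ML WT (log2 fold change of 4.95 ± 0.46 SE, adjusted p = 7.3e-07), and Lgr4 at 39.4, 51.5 and 70.4 CPM in ML KO against 12.8, 14.3 and 14.8 CPM in ML WT (log2 fold change of 1.94 ± 0.28 SE, adjusted p = 6.3e-05). For the 3 Lgr receptors the groups were far apart and the calls held in every alternative setting. Rspo1 was uneven, at 72, 10.9 and 12.7 CPM in ML KO against 0, 1.67 and 1.84 CPM in ML WT (log2 fold change of 4.55 ± 0.91 SE, adjusted p = 0.0018). Its high library is that of KO mouse 1, the one that stood apart in its markers, and without this mouse the log2 fold change was 3.14 (adjusted p = 0.018).

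Among the ligands, Wnt5b rose to 71.4, 25.8 and 27.8 CPM in ML KO, against 7.29, 5.005 and 6.54 CPM in ML WT (log2 fold change of 2.73 ± 0.37 SE, adjusted p = 3.5e-05). Without KO mouse 1, its highest library, the log2 fold change was 2.11 (adjusted p = 1.1e-04). Wnt10a rose to 8.73, 5.27 and 9.49 CPM in ML KO, against 0.317, 0 and 0.171 CPM in ML WT (log2 fold change of 5.70 ± 0.60 SE, adjusted p = 2.7e-06). Wnt6 (gene 22420, chromosome 1, 74754342 to 74785322), the neighbour of Wnt10a on chromosome 1, had 80 counts in ML KO and 0 in ML WT, at least 15.5-fold higher (edgeR adjusted p = 0.0021). Wnt5a and Wnt7b, the highest of the 7 ligands in ML WT, did not pass. Wnt5a stood at 12.3, 82.5 and 89.6 CPM in ML KO against 129, 104 and 94.97 CPM in ML WT, each KO library below each WT library (log2 fold change of -0.82 ± 0.55 SE, adjusted p = 0.34). Wnt7b stood at 71.8, 69.8 and 59.99 CPM in ML KO against 121, 95.9 and 95.1 CPM in ML WT, also below without overlap (log2 fold change of -0.63 ± 0.26 SE, adjusted p = 0.11). Per length, Wnt5b was the highest of the 7 ligands in ML KO at 17.6 ± 10.9 RPKM, with Wnt7b at 15.2 ± 1.43 and Wnt5a at 14.1 ± 9.77 RPKM within its spread, whereas Wnt5b stood at 2.65 ± 0.491 RPKM in ML WT.

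Wnt5b is 1 of 2 members, with Wnt11, whose RefSeq promoter held a TCF/LEF core match. The 250 bases before 1 of its 3 start sites (GRCm38.p6, chr6:119449387-119449636, minus strand, 5′ to 3′) are shown with the matched letters in capitals, which read ATCAAAG on the other strand.
Wnt5b: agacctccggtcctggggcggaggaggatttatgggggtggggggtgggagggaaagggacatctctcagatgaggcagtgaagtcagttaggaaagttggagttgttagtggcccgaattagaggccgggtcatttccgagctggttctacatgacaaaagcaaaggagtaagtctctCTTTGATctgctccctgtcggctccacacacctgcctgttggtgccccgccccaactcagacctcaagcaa
In all, 2 of 33 promoters of the 23 genes found in the table (6.06%) held ATCAAAG or TTCAAAG on either strand, in windows of 250 bases before to 50 after the start, against 8.65% of 32851 promoters. A match is letters only, and no match says nothing of a factor's binding elsewhere.

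Of the receptors, Fzd1, Fzd5 and Fzd7 rose in ML KO. Fzd1 stood at 37.6, 26.8 and 20.1 CPM in ML KO against 3.33, 3.34 and 6.12 CPM in ML WT (log2 fold change of 2.68 ± 0.34 SE, adjusted p = 1.9e-05). Fzd5 stood at 61.2, 40.4 and 35.6 CPM in ML KO against 13.9, 21.6 and 23.7 CPM in ML WT (log2 fold change of 1.20 ± 0.31 SE, adjusted p = 0.013) and was lost without KO mouse 1 (adjusted p = 0.09), while Fzd7 stood at 41.3, 45.8 and 45.04 CPM in ML KO against 15.5, 17.8 and 23.2 CPM in ML WT (log2 fold change of 1.22 ± 0.40 SE, adjusted p = 0.046) and was lost in 5 of 13 settings. Fzd2 and Fzd4 lay below WT in each ML KO library without passing: Fzd4 stood at 4.36, 16.9 and 14.4 CPM in ML KO against 21.9, 30.8 and 21.6 CPM in ML WT (log2 fold change of -1.04 ± 0.41 SE, adjusted p = 0.098). Fzd3, Fzd6 and Fzd8 did not pass in ML (adjusted p = 0.66, 0.73 and 0.5 in edgeR), with Fzd6 at 82.99 ± 5.82 CPM in ML KO and 91.8 ± 8.06 CPM in ML WT. The co-receptor Lrp6 stood at 169 ± 26.3 CPM in ML KO and 217 ± 22.2 CPM in ML WT (log2 fold change of -0.36 ± 0.27 SE, adjusted p = 0.42), and Lrp5 at 199 ± 31.8 CPM in ML KO and 196 ± 26.6 CPM in ML WT (log2 fold change of 0.02 ± 0.24 SE, adjusted p = 0.97).

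Inside the cell, Axin2, Nkd1 and Nkd2 rose in ML KO while the core of the destruction complex did not pass. Axin2 (gene 12006, chromosome 11, 108917828 to 108950783) stood at 18.1, 13.4 and 4.43 CPM in ML KO against 0.158, 1.001 and 1.03 CPM in ML WT, with no overlap (log2 fold change of 3.87 ± 0.69 SE, adjusted p = 6.4e-04). In LP it stood at 11.5, 8.51 and 2.83 CPM in KO against 2.47, 4.34 and 8.52 CPM in WT, and in basal cells at 20.1, 20.5 and 10.6 CPM in KO against 6.86, 12.4 and 17.4 CPM in WT, groups that overlapped and did not pass. Nkd1 stood at 0.694, 1.08 and 1.38 CPM in ML KO against 0, 0 and 0.214 CPM in ML WT (log2 fold change of 3.20 ± 0.69 SE, adjusted p = 0.003), a call lost with the ML libraries alone (adjusted p = 0.056). Its value was 7.50 (adjusted p = 0.0026) without WT mouse 3, the WT library with counts. Ctnnb1 stood at 853 ± 39.5 CPM in ML KO and 832 ± 64.2 CPM in ML WT (log2 fold change of 0.04 ± 0.21 SE, adjusted p = 0.94). Axin1 stood at 108 ± 32.1 CPM in ML KO and 79.9 ± 3.64 CPM in ML WT, and Apc at 407 ± 143 CPM in ML KO and 625 ± 369 CPM in ML WT. The ligase genes Znrf3 and Rnf43 did not pass either (adjusted p = 0.33 and 0.79 in edgeR). Among the transcription factors Tcf7l1 rose, at 27.4, 12.8 and 19.3 CPM in ML KO against 5.54, 5.17 and 7.66 CPM in ML WT (log2 fold change of 1.67 ± 0.33 SE, adjusted p = 0.0017). Lef1 had 20 counts in ML KO and 0 in ML WT, at least 3.88-fold higher, and did not pass (edgeR adjusted p = 0.089). Without KO mouse 2, which had 16 of these counts, its bound was 1.57-fold.

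Of the 19 calls in ML, 13 held in every alternative setting they could be tested in, and leaving out KO mouse 1 left 15. In bulk libraries, fewer cells of a type and less RNA per cell cannot be told apart. Markers of other cell types moved with these genes in ML. Basal markers summed to 1271 to 1530 CPM in ML KO against 423 to 695 CPM in ML WT, with 11 of 15 higher in KO. The median log2 fold change of the 15 basal markers was 2.65. Luminal progenitor markers summed to 837 to 2051 CPM in ML KO against 185 to 309 CPM in ML WT, with 10 of 11 higher. Mature luminal markers summed to 2271 to 5208 CPM in ML KO against 7744 to 10857 CPM in ML WT, with 5 of 12 lower, and fibroblast markers to 313 to 537 CPM in ML KO against 124 to 284 CPM in ML WT, with 3 of 15 higher. Among the fibroblast markers, Dcn held 710, 12641 and 2445 counts in ML KO and 114, 1884 and 6203 in ML WT. Postn held 1473, 3413 and 3367 counts in ML KO and 59, 38 and 20 in ML WT. The part of these marker differences in the rises of the 39 genes was not tested.

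**Figure D4:**
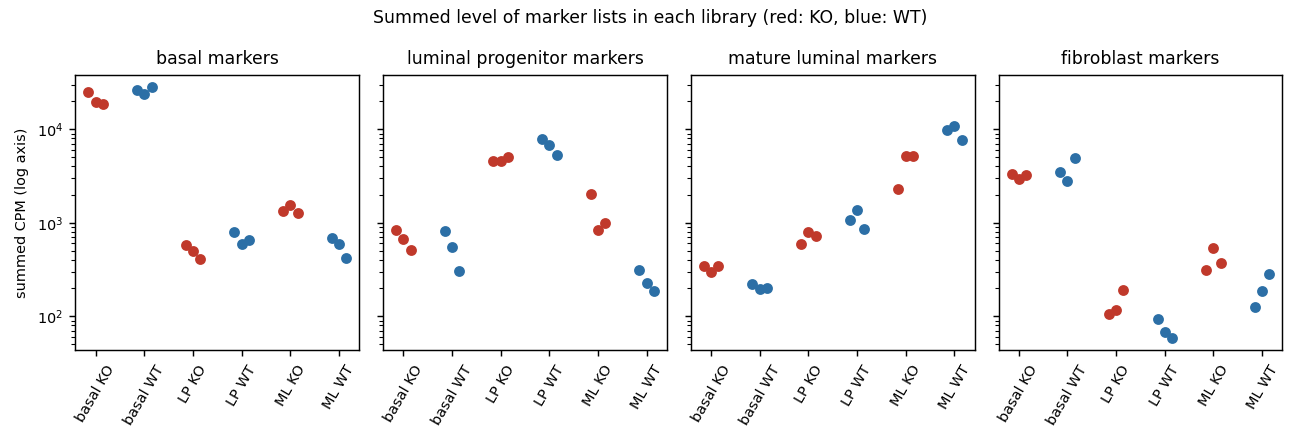
Summed CPM of 4 marker lists in each library on a log axis, KO in red left of WT in blue in each population. In ML the basal and luminal progenitor sums lie higher in the 3 KO libraries than in the 3 WT libraries and the mature luminal sum lies lower. In LP the basal sum lies lower in KO, and Itga6, Itgb4 and Lama3 hold a large part of it. Single basal markers in LP went both ways, with 3 of 15 called higher and 2 lower.

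The level of each gene in ML KO can be set beside its level in basal KO, the population with most of these transcripts. The basal marker sum in ML KO was 6.52% of that in basal KO, against 2.18% for ML WT over basal WT. For ML WT over basal WT the median of single basal markers was 0.337%. Itga6 stood there at 44.4%, Itgb4 at 41.6%, Krt5 at 0.141% and Krt14 at 0.06%. For ML KO over basal KO single basal markers ranged from 0.345% for Cnn1 to 60.2% for Itgb4, with a median of 5.89%. Of the contractile genes, Acta2, Myh11 and Cnn1 lay under 1%, while Tagln lay at 1.28% and Mylk at 2.2%. The oxytocin receptor gene Oxtr lay at 3.51%, and the keratin genes Krt5, Krt14 and Krt17 at 9.697%, 7.24% and 10.4%. Of the 19 risen genes, Nkd1 at 3.11%, Wnt6 at 6.701%, Wnt10a at 7.75% and Wif1 at 7.84% lay within the range of those keratins or below it. The other 15 were above 8%, among them Lgr5 at 16.2%, Sfrp1 at 15.9%, Lgr4 at 18.2%, Lgr6 at 31.6% and Axin2 at 70.3%. Nkd2 reached 93.8%, and Wnt5b, Notum and Rspo1 exceeded their basal KO level at 143%, 206% and 1271%. These percents did not set the risen genes apart from the other members: the median was 31.6% over the 19 risen genes and 49.8% over the 20 that were not called, of which 18 were above 8%. Against LP KO, where Wnt5b and Rspo1 are highest, ML KO held 25.6% of Wnt5b and 40.8% of Rspo1, beside 27.4% of the luminal progenitor marker sum.

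**Figure D5:**
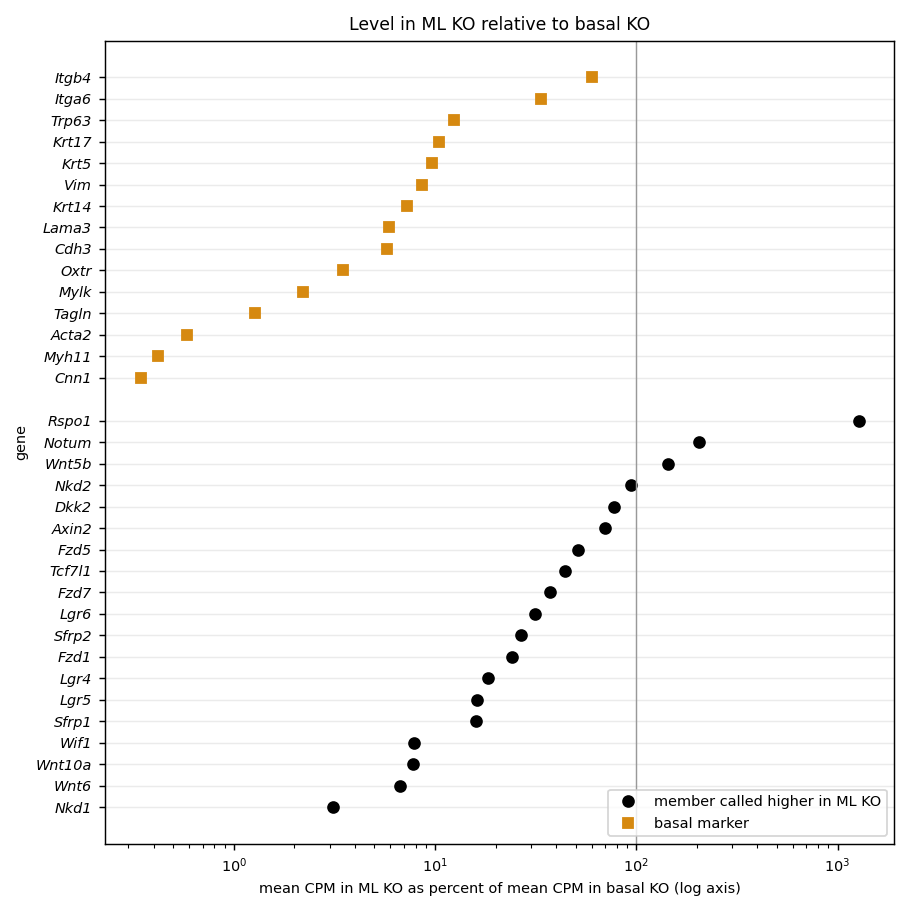
Mean CPM in ML KO as a percent of the mean CPM in basal KO, on a log axis, for the 19 genes that rose in ML KO (circles) and 15 basal markers (squares), each group sorted. The circles run from Nkd1 at 3.11% to Rspo1 at 1271%, and the squares from Cnn1 at 0.345% to Itgb4 at 60.2%, so the 2 ranges overlap; the 20 genes that were not called are not drawn and had a median of 49.8%.

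The genotype effects were then compared between populations with interaction terms, which test the difference of the log2 fold changes. Between LP and basal cells 2 of the 39 genes differed, Nkd2 (5.29) and Lgr5 (-3.05, lost in 5 of 13 settings), where 1.02% of all genes did, 0.364% with a positive and 0.656% with a negative difference. With the mouse as a block 4 differed, adding Wnt6 and Fzd4. Between ML and basal cells 15 differed, all with the larger log2 fold change in ML, where 6.1% of all genes differed, 5.02% in that direction and 1.08% in the other. Between LP and ML 12 differed, all with the larger log2 fold change in ML, where 6.93% of all genes differed, 5.7% in that direction and 1.23% in the other. These comparisons share libraries, so their genes are not independent counts.

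Other genes of the pathway were measured with these 39. Of 122 such genes in the table, 103 were tested. In basal cells 1 rose in KO, where 2.47% of all genes rose. An unadjusted p under 0.05 was found for 9, and for 1724 of all 16466 genes. Tnfrsf19, a reported target that encodes a receptor of the tumour necrosis factor family, stood at 5.297, 46.3 and 5.61 CPM in basal KO against 1.72, 1.15 and 2.17 CPM in basal WT (edgeR log2 fold change of 3.54 ± 0.90 SE, adjusted p = 0.041). The library of KO mouse 2 was far above the others. In LP 6 of the 103 rose and 7 fell, near the share of all genes, of which 7.55% rose and 5.68% fell. Gpc6, a glypican of the cell surface, fell to 6.31 ± 2.91 CPM in LP KO, against 68.4 ± 39.8 CPM in LP WT (edgeR log2 fold change of -3.43 ± 0.45 SE, adjusted p = 2.0e-04). The corepressor genes Hdac1 and Ctbp2 moved apart, with Hdac1 at 37.1 ± 5.12 CPM in LP KO and 16.1 ± 2.78 CPM in LP WT, and Ctbp2 at 60.7 ± 7.91 CPM in LP KO and 122 ± 22.7 CPM in LP WT (edgeR adjusted p = 0.0028 and 0.0058). Ctnnbip1, an inhibitor of β-catenin, rose to 45.6 ± 11.9 CPM in LP KO, against 21.2 ± 3.105 CPM in LP WT (edgeR log2 fold change of 1.10 ± 0.25 SE, adjusted p = 0.008).

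In ML 26 of the 103 other genes rose and 3 fell in KO, with a median log2 fold change of 0.14, where 12.5% of all genes rose and 2.62% fell. The rises included 9 of 17 reported target genes and 6 of 12 other receptors and co-receptors. They also included 4 of 27 genes of cytoplasmic transduction, near the share of all genes. Lowest in p were Prickle1, a planar polarity gene, at 35.04 ± 10.8 CPM in ML KO against 1.73 ± 0.431 CPM in ML WT (edgeR adjusted p = 1.9e-07), and Fst, which encodes the activin inhibitor follistatin, at 95.9 ± 10.9 CPM in ML KO against 4.45 ± 2.305 CPM in ML WT (edgeR adjusted p = 7.1e-07). Bambi, a decoy receptor, followed at 10.9 ± 3.28 CPM in ML KO against 1.12 ± 0.204 CPM in ML WT. Cd44, an adhesion receptor, stood at 175 ± 48.5 CPM in ML KO against 12.3 ± 2.35 CPM in ML WT. The 3 falls were in Wnt4, a ligand of mature luminal cells downstream of progesterone, Wls, the carrier that brings Wnt proteins to the surface, and the receptor gene Ryk, which was chosen after its value was seen. Wnt4 stood at 114 ± 14.2 CPM in ML KO against 299 ± 169 CPM in ML WT (log2 fold change of -1.40 ± 0.46 SE, adjusted p = 0.048), and it is also among the mature luminal markers above. Wls stood at 115 ± 22.02 CPM in ML KO against 194 ± 47.7 CPM in ML WT (log2 fold change of -0.76 ± 0.21 SE, adjusted p = 0.021). Wnt10b, the acyltransferase gene Porcn and the stem cell marker gene Procr did not pass between the genotypes in any population, and Rspo3 was below the filter, with a mean of at most 0.401 CPM in any group.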

How the data were processed

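RNA was extracted with the miRNeasy micro kit and sequenced from Illumina TruSeq RNA v2 libraries, per the labels' protocols. The authors deposited whole-number counts per gene identifier, made with featureCounts on mm10, per the submitters' processing notes; aligner, annotation and strand setting are not given in the labels. Without strand, reads of overlapping antisense genes cannot be told apart. The 18 single tables equalled the series table. Symbols matched 25275 of 27179 identifiers, and the other 1904 held 1.6% of counts.

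Genes passing filterByExpr (16466) were fitted in edgeR 4.0.16 (R 4.3.3, limma 3.58.1) with TMM factors of 0.832 to 1.19, 1 mean per group over all 18 libraries and the default quasi-likelihood test, with Benjamini-Hochberg adjusted p over all tested genes and a threshold of 0.05. The default and a newer, robust quasi-likelihood method were both seen before the default was kept, as the planned test names no option. A gene was called when past the threshold. The standard error is the log2 fold change divided by the root of F. The biological coefficient of variation was 33.3%, with 12 residual degrees of freedom. The same steps were also run on simulated data, with equal means in all groups apart from inserted changes and no correlation within a mouse. Since these data have both population differences and such correlation, that run does not give their error rates. RPKM used the gene lengths in the tables. Bounds and counting intervals (95%, exact) used counts summed per group with a floor of 3 counts, and cover counting error only.

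The labels give the same mouse number across populations. Deviations from the group means correlated within a mouse, with 17 of 18 pairs above 0.1 and a range of 0.095 to 0.334, so the mouse was a block in an alternative. The 14 alternatives also cover RLE factors, no filter, DESeq2 1.42.0, fewer libraries, thinning to 5.97 M counts and leaving out each mouse. Nothing beyond the mouse number says how replicates were made, and p-values measure the spread between these mice. The 39 genes and all lists were chosen with earlier results of these data known. Any of the 39 could be named. Of other pathway genes, those called were named, at most 4 of lowest p per comparison, plus 6 chosen for known roles. Promoters are from the RefSeq table for GRCm38.p6, which held 23 of the 39 genes.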

Additional observations from a re-analysis of the deposited data

Results flagged for a closer look

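The effect of the genotype differed between populations for the following genes, by an interaction term in edgeR's quasi-likelihood test. Each value is a difference of 2 log2 fold changes of KO over WT, first population minus second, and no explanation was tested.

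For LP minus basal cells, Nkd2 had a difference of 5.29 (adjusted p = 0.0024) and Lgr5 of -3.05 (adjusted p = 0.044). The call of Nkd2 held in each of the 13 alternative settings, whereas that of Lgr5 was lost in 5, without any 1 of the KO mice and without WT mouse 1 or WT mouse 2, with an adjusted p of up to 0.306.

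For ML minus basal cells, all 15 differences were positive. Wif1 (7.25), Lgr5 (6.68), Nkd2 (6.59), Notum (6.12) and Wnt10a (5.70) had the largest. Rspo1 had a difference of 4.84, Lgr6 of 4.17 and Lgr4 of 1.74. The antagonist Sfrp1 had 3.76, the ligand Wnt5b 2.83, and the feedback genes Nkd1 and Axin2 3.79 and 3.38. The receptors Fzd1 and Fzd7 had 2.84 and 1.91, and Tcf7l1 had 2.01. Of these 15 calls, 9 held in every alternative setting. The call of Notum was lost in 7 of 13 settings, with an adjusted p of up to 0.333. Those of Fzd7, Axin2 and Rspo1 were lost in 6, 4 and 3 settings, and those of Lgr4 and Tcf7l1 in 1 each.

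For LP minus ML, all 12 differences were negative, which means a larger log2 fold change in ML. Wnt6 had the lowest value, -10.38, a fitted number that rests on 0 counts in ML WT and is no bound. Lgr5 had -9.73, Lgr6 -5.50, Lgr4 -2.63 and Rspo1 -4.66. Wif1 had -5.16 and Sfrp1 -4.23. Wnt5b had -3.29, Axin2 -3.32, Fzd1 -3.05, Fzd5 -1.59 and Tcf7l2 -2.49. Of these 12 calls, 7 held in every alternative setting. Those of Axin2 and Fzd5 were lost in 5 of 13 settings each, those of Wif1 and Rspo1 in 4 each and that of Tcf7l2 in 3. The value of Wif1 ran from -5.86 to -0.97 over the settings, with an adjusted p of up to 0.915. Without KO mouse 1, whose ML library stood apart in its markers, 10 genes differed for ML minus basal cells and 8 for LP minus ML.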

How the results depend on the processing

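Of the 39 genes, the number called for KO against WT in basal cells was 0 and became 1 with no filter, with basal libraries alone and with thinned libraries, 2 with DESeq2 and with the newer quasi-likelihood method (added after seeing the data), and 0 to 1 with a mouse left out. In LP, 8 calls became 2 with LP libraries alone and 3 to 7 with a mouse left out. In ML, 19 calls became 15 to 18 with a mouse left out. The genotype effect in LP against basal cells had 2 calls, 4 with DESeq2, 4 with the mouse as a replicate block and 1 to 3 with a mouse left out. In ML against basal cells 15 calls became 10 to 14, and in LP against ML 12 calls became 7 to 13, with a mouse left out. In WT mice, leaving out a mouse gave 21 to 22 calls for LP against basal cells, 30 to 32 for ML against basal cells and 17 to 22 for LP against ML. The replicate number as a block made 0 basal calls, 11 for LP and 23 for ML, and same-numbered KO and WT libraries come from different mice. The mouse as a block gave 28, 35 and 26 calls in the 3 comparisons of WT populations in that order, 20 for ML against basal cells and 15 for LP against ML. No called gene changed sign in any setting. The cause of these moves was not tested, beyond fewer samples when libraries were left out.

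Over all genes, leaving out WT mouse 2 gave 579 calls in LP where all mice gave 2178, 1526 in ML where all gave 2491 and 207 in basal cells where all gave 418. LP libraries alone gave 688, and leaving out KO mouse 1 or KO mouse 3 gave 1166 and 993 in LP. Leaving out KO mouse 1 gave 1562 in ML. DESeq2 gave 694 in basal cells, and leaving out KO mouse 2 or 3 gave 240 and 247. For WT populations, leaving out WT mouse 2 gave 3864 for LP against basal cells (5941 with all) and 3384 for LP against ML (5591 with all). The genotype effect in LP against basal cells had 168 calls, 559 with DESeq2, 437 with the mouse block and 87, 62, 36 and 30 without KO mouse 1, KO mouse 2, KO mouse 3 and WT mouse 2. In ML against basal cells 1004 became 660 without KO mouse 2 and 607 without WT mouse 2. In LP against ML 1141 became 1727 with DESeq2, 1727 with the mouse block and 635, 692 and 604 without KO mouse 1, KO mouse 3 and WT mouse 2. RLE factors and DESeq2 moved the median log2 fold change of all genes to -0.14 for ML against basal cells of WT mice (-0.07 with TMM) and to -0.12 for the genotype effect in LP against ML (-0.07 with TMM).

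Depth limits genes such as Wnt2, Lef1, Dkk2 and Notum, which had a few counts or 0 in luminal WT libraries.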
